A study of Mus musculus with 2 samples.

Results

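Slc17a7, Slc17a6 and Slc17a8 encode VGLUT1, VGLUT2 and VGLUT3, the carriers that load glutamate into synaptic vesicles. The 3 genes were taken by name from the 21884 protein-coding genes counted here, and the accessibility of their chromatin was measured by single-cell ATAC sequencing (scATAC-seq) of mouse brain. Vesicular glutamate transporters use the proton gradient that the vacuolar ATPase builds across the vesicle membrane to concentrate glutamate in the vesicle. Each marks a different set of neurons: VGLUT1 is best known from pyramidal neurons of the cortex and hippocampus, VGLUT2 from the thalamus, hypothalamus and brainstem, and VGLUT3 from scattered neurons that also release another transmitter, among them some cholinergic, serotonergic and GABAergic cells. A neuron's transporter is the usual sign that it is glutamatergic, so nuclei were sorted into classes on other genes only.

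The data held 2 libraries, 1 for each condition, from C57BL/6J WT male mice of 8 to 12 weeks. The stroke library pooled the ipsilateral hemispheres of 4 brains, taken 48 h after the middle cerebral artery was occluded for 1 h and then reperfused (MCAO/R). The sham library pooled 4 brains of mice in which a filament was inserted without sustained occlusion. Olfactory bulbs and cerebellum were left out of both, and the tissue was flash-frozen. With 1 library per condition, the condition, the animals, the hemisphere taken and the library cannot be told apart, so no difference between sham and stroke was tested. The intervals below are exact 95% intervals that cover counting error only.

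The sham library held 76959104 fragments and the stroke library 96465679. Of the barcodes called as cells, 6817 of 6979 in sham (97.7%) and 5054 of 8740 in stroke (57.8%) had over 20% of their fragments in peaks and were kept. The stroke library therefore stood apart before any gene was read, with a median of 24.8% of fragments in peaks over its called barcodes against 38.5% in sham. The kept nuclei had a median of 10356 fragments in sham and 9898 in stroke. The 2 libraries shared 66 called barcodes, 42 of them kept.

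Nuclei were gated on marker lists that held no vesicular transporter. A class name below means that nuclei carried that cell type's markers (excitatory-like, GABAergic-like and so on). The excitatory class, meaning telencephalic excitatory neurons, held 2592 nuclei in sham and 1361 in stroke, and the GABAergic class held 1804 and 1081. The thalamic and habenular class held 134 and 56 nuclei. When alternate markers were held out of the gate, their summed level was 1.57-fold higher in the excitatory class than in all other nuclei (1.54 to 1.60), 2.82-fold higher in the GABAergic class and 2.62-fold higher in the thalamic and habenular class. Within the excitatory class, deep layer nuclei held 3.45-fold and upper layer nuclei 1.86-fold more of their held-out markers. The gates of this check used the remaining markers alone, so their members differed (2524 excitatory nuclei with the libraries summed). The scoring rule was itself chosen on held-out markers, and neighbours were found from tiles that could cover them. The check thus describes the gates and is not an independent test. The hippocampal gate could be checked on 3 nuclei alone (1.22-fold, 0.792 to 1.81), and its values are given with that limit. A hypothalamic and midbrain gate failed the check (0.888-fold) and held under 50 nuclei, as did a cholinergic gate, so neither class is described. The orders of levels below hold classes of at least 50 nuclei in that library, which leaves out myeloid nuclei in sham (39) and ependymal and choroid plexus nuclei in stroke (12). No doublet caller was run. Of the excitatory nuclei, 409 of 2592 in sham and 172 of 1361 in stroke also passed, on their own fragments, the gate score of another lineage. Here and below, such counts leave out the thalamic and habenular, hypothalamic and midbrain, and ependymal and choroid plexus gates as the other lineage.

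In mm10 the 3 genes, each of 12 exons, lie as follows. Slc17a7 (ENSMUSG00000070570.5) spans chr7:45163949-45176142 on the plus strand. Slc17a6 (ENSMUSG00000030500.6) spans chr7:51622006-51671119, also on the plus strand. Slc17a8 (ENSMUSG00000019935.16) spans chr10:89574020-89621253 on the minus strand. Fragments were counted over each gene body and the 2 kb upstream, windows of 14.2, 51.1 and 49.2 kb. Levels are given as fragments per 1000000 fragments of a class (CPM), and per kb of window where genes are compared.

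The promoters, from 250 bases before to 50 after the RefSeq start, differed in base composition. The Slc17a7 promoter (chr7:45163671-45163970, plus strand) had 63.7% G and C and 13 CG dinucleotides, the Slc17a6 promoter (chr7:51621580-51621879, plus strand) 53.7% and 8, and the Slc17a8 promoter (chr10:89621200-89621499, minus strand) 58.0% and 7. RefSeq lists a further start for Slc17a6 and for Slc17a8 inside the gene, and the promoters shown are those at the outer start, beside which fragments were counted. Each is printed 5′ to 3′ along its gene from RefSeq (GRCm38.p6), with the letters of any matched motif in capitals.
Slc17a7 promoter: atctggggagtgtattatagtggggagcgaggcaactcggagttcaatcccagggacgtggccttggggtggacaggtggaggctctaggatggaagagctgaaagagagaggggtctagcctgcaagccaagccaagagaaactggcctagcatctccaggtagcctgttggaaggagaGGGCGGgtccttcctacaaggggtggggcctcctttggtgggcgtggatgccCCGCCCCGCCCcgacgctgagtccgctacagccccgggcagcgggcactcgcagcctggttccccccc
Slc17a6 promoter: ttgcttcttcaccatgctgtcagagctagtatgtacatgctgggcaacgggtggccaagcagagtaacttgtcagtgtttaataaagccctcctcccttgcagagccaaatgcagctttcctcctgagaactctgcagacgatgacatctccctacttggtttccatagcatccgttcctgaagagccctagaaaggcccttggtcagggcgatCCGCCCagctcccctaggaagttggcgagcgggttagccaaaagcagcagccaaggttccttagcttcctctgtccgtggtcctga
Slc17a8 promoter: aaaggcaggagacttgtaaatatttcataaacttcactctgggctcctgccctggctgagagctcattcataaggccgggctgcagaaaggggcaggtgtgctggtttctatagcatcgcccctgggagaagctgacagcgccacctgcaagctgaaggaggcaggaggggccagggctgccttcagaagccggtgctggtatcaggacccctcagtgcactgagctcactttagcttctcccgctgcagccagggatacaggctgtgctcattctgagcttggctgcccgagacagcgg
Of 7 motifs searched on both strands, only the GC box GGGCGG was found in these 3 windows. It occurred 3 times in the Slc17a7 promoter, where 2 copies share a base, once in that of Slc17a6 and not in that of Slc17a8, and 35.7% of 32851 promoters held it. The other motifs were the E-box of proneural factors CAGATG (17.2% of promoters), the cAMP response element TGACGTCA (1.79%), the AP-1 motif TGANTCA (7.81%), the homeodomain core TAATTA (5.29%), the TCF/LEF motif CTTTGA (16.0%) and the TATA box TATAAA (13.6%). None of these strings contains another. A match describes the letters only, and no match says only that the letters are not in the window.

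Windows along the loci were taken by a rule on fragment number: the 300-base windows with the most fragments over all kept nuclei of both libraries, at least 500 bases apart. Of the 21 windows, 3 are shown next, picked from them after their class ratios were seen because the class differences below turn on them. The first lies 1.7 kb upstream of Slc17a7 (chr7:45162149-45162448, intergenic) and held 1436 fragments, the most of any window inside the 3 counted regions. The second lies 3.2 kb downstream of the Slc17a7 start (chr7:45167049-45167348, intron 1) and held 378. The third lies 40.6 kb downstream of the Slc17a6 start (chr7:51662506-51662805, intron 8) and held 112. Sequences are GRCm38.p6, plus strand, with motif letters in capitals.
Slc17a7 -1.7 kb: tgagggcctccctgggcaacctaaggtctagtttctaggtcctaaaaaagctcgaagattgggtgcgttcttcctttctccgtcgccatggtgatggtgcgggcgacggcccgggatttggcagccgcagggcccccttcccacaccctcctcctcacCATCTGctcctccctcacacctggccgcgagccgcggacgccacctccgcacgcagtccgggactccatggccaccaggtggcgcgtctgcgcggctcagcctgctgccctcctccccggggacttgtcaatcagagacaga
Slc17a7 +3.2 kb: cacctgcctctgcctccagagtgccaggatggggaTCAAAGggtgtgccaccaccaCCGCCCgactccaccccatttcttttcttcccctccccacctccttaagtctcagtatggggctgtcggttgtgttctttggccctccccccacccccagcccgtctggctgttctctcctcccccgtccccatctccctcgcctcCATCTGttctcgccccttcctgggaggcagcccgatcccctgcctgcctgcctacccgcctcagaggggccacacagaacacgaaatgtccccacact
Slc17a6 +40.6 kb: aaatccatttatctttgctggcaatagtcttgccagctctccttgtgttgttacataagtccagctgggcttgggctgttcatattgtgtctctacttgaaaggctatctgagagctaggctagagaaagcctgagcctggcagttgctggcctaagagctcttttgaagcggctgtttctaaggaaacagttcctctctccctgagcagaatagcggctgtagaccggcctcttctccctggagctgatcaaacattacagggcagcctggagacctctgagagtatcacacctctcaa
The window at -1.7 kb held 1 CAGATG, read on the other strand as CATCTG. The window at +3.2 kb held 1 GC box, 1 CAGATG and 1 CTTTGA. None of the 7 motifs was in the window at +40.6 kb. Of 4729 windows of 300 bases along chromosome 7, 22.4% held CAGATG, 22.6% CTTTGA and 3.15% the GC box.

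Slc17a7, the cortical and hippocampal transporter gene, was the most open of the 3 per kb and had the largest ratio of excitatory over GABAergic nuclei in its counted window. With the promoter alone the ratio of Slc17a7 was 3.07 in sham and 3.18 in stroke, below the 3.53 and 4.85 of Slc17a6, with intervals that overlap. In excitatory nuclei it held 2618 fragments in sham and 1138 in stroke, levels of 82.0 CPM (78.9 to 85.2) and 67.6 CPM (63.7 to 71.6). In GABAergic nuclei the levels were 20.3 and 17.1 CPM. The excitatory class was thus higher by 4.05-fold in sham (3.65 to 4.50) and by 3.95-fold in stroke (3.37 to 4.65). With no minimum share of fragments in peaks the stroke ratio was 6.54 (5.67 to 7.57), while that of sham stayed at 4.05. Over all genes with at least 50 fragments, 7.49% of 18351 in sham and 7.45% of 17763 in stroke were higher in excitatory than in GABAergic nuclei by 1.5-fold or more. Genes with at least 50 fragments in excitatory nuclei were ranked by fold in these over all other nuclei, with the libraries summed. Slc17a7 was 55th of 18310, at 2.58-fold (2.45 to 2.72). The leading genes included the excitatory marker Neurod6. They also included Vmn1r233, Olfr464, Olfr76 and Olfr1427, which are among the receptor genes taken below as closed chromatin.

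A fragment over Slc17a7 was found in 52.9% of excitatory nuclei in sham and 47.5% in stroke, against 14.6% and 12.2% of GABAergic nuclei. With each nucleus thinned to 5000 fragments, and the shallower ones left out, the shares were 31.2% and 27.0% of excitatory nuclei against 9.0% and 7.25% of GABAergic nuclei. Thinning left out 331 excitatory nuclei in sham and 102 in stroke, and 371 and 253 GABAergic ones. The median depths of the 2 classes were 12188 and 10698 fragments in sham and 12381 and 9179 in stroke. GABAergic neurons are not known for this transporter, and the excitatory share stood above theirs at an equal number of fragments per nucleus. The share of those fragments in peaks was not matched, with medians of 41.0% in excitatory and 34.9% in GABAergic nuclei in sham and 34.7% and 30.5% in stroke.

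Per kb of window, Slc17a7 was far above closed chromatin in every class of at least 50 nuclei. The level of closed chromatin was taken from 1416 olfactory and vomeronasal receptor genes as a set. These are assumed not to be used by brain nuclei, though some of them led the excitatory rank above. In excitatory nuclei these genes held 0.0590 CPM per kb in sham and 0.0748 in stroke, whereas Slc17a7 held 5.78 and 4.76. That was 97.9-fold and 63.6-fold over the closed level, and higher than 98.4% and 98.3% of all genes per kb. In GABAergic nuclei Slc17a7 was still 27.3-fold and 16.8-fold over the closed level, higher than 74.8% and 71.5% of genes. Of these nuclei 374 of 1804 in sham and 169 of 1081 in stroke also passed, on their own fragments, the gate score of another lineage, and without such nuclei the excitatory over GABAergic ratio was 4.34 in sham (3.83 to 4.93) and 4.34 in stroke (3.63 to 5.23).

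Within the excitatory class, Slc17a7 was highest in deep layer nuclei in sham, at 99.9 CPM (92.3 to 108). Upper layer nuclei stood at 77.0 CPM, hippocampal nuclei at 74.1 and other excitatory nuclei, which carried no layer or hippocampal gate, at 79.2. In the deep layer class 22 nuclei with 5 or more fragments held 23.1% of the fragments, against 10.9% for such nuclei among other excitatory ones. The share of nuclei with a fragment was 51.5% in deep layer and 49.6% in upper layer nuclei, below the 58.9% of other excitatory and 62.2% of hippocampal nuclei, which were deeper. Thinned to 5000 fragments, the shares were 33.8% in deep layer (29.7 to 38.1), 28.6% in other excitatory (24.9 to 32.5) and 26.5% in hippocampal nuclei (19.6 to 34.4), and 314 of 1048 upper layer nuclei held a fragment (27.2% to 32.8%). The deep layer level was above the next by 1.26-fold (1.13 to 1.41), while the other 3 did not differ beyond counting error. In stroke the order was not kept: hippocampal nuclei stood at 77.6 CPM, other excitatory nuclei at 72.6, deep layer nuclei at 69.4 and upper layer nuclei at 61.3, and no neighbours in that order differed beyond counting error.

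Thalamic and habenular nuclei carried Slc17a7 at 51.1 CPM in sham and 65.0 in stroke, from 74 and 34 fragments. That was 2.52-fold (1.94 to 3.24) and 3.80-fold (2.55 to 5.50) over GABAergic nuclei. A few nuclei held much of it: 4 sham nuclei with 5 or more fragments each carried 39.2% of the class's fragments, and 2 stroke nuclei carried 44.1%. The same 2 shares were 15.5% and 12.3% in excitatory nuclei. Among GABAergic subclasses Slc17a7 lay between 15.7 CPM (Lhx6 nuclei) and 23.3 CPM (Zic nuclei) in sham, and between 12.6 CPM (Zic nuclei) and 19.8 CPM (Prox1 Adarb2 nuclei) in stroke. Astrocytes stood at 19.3 and 12.3 CPM and oligodendrocytes at 21.2 and 13.2 CPM. In sham the next class below thalamic and habenular nuclei was OPC nuclei at 33.4 CPM, and these 2 did not differ beyond counting error (1.53, 0.988 to 2.42). No neighbours further down that order differed either.

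**Figure D1:**
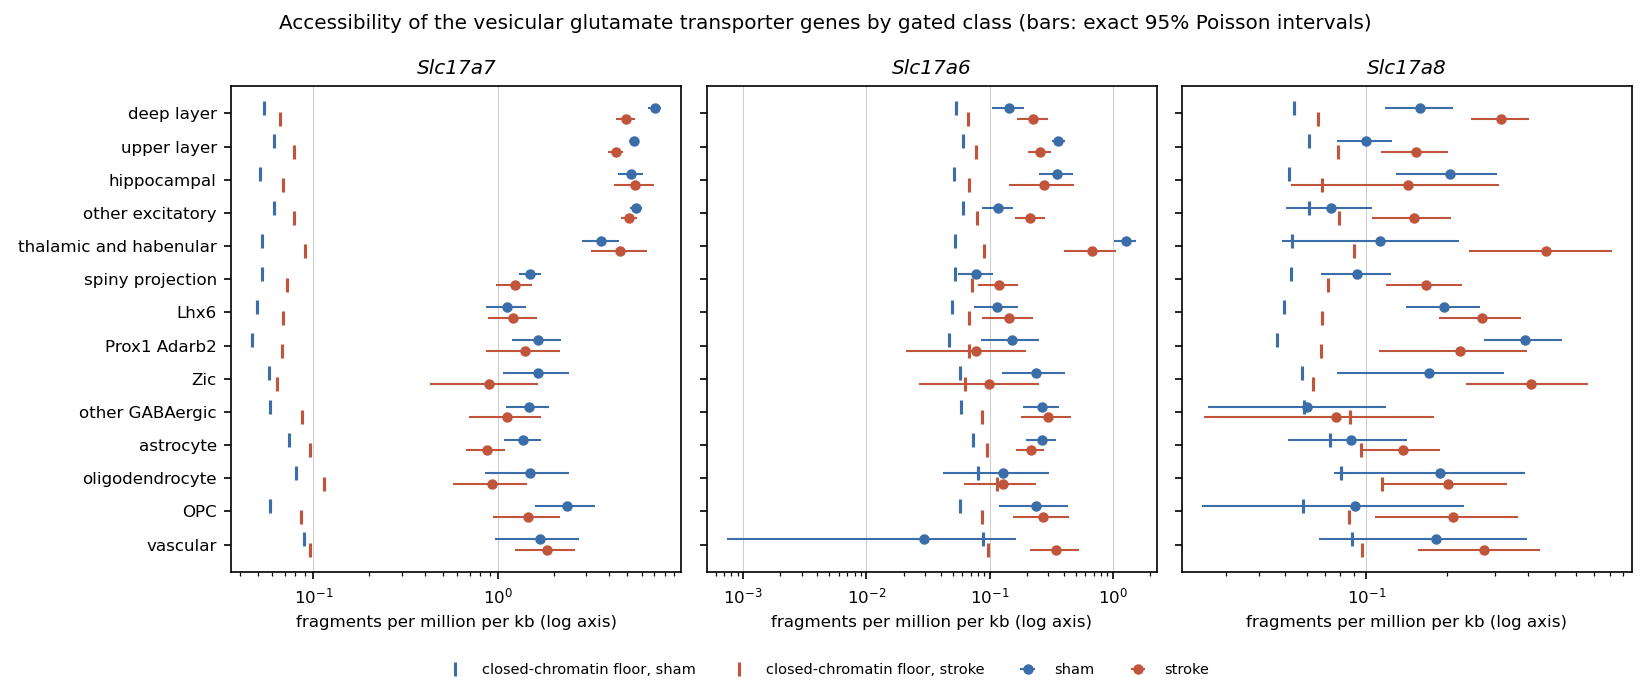
Accessibility of each gene in fragments per 1000000 per kb of counted window (x, log axis, its range differing between panels) in 14 classes (y), with sham in blue and stroke in red; bars are exact 95% Poisson intervals and short vertical marks the level of the receptor genes in closed chromatin. In stroke Slc17a7 falls into a high group of excitatory and thalamic classes and a low group of all others. In sham the thalamic level lies below the excitatory ones and does not differ from OPC nuclei beyond counting error. Slc17a6 stands out in the thalamic and habenular class, and Slc17a8 lies between 0.887 and 8.35 times the closed level.

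Along the Slc17a7 locus, the class difference was uneven. The window at -1.7 kb, printed above, held 646 fragments in sham excitatory nuclei and 101 in GABAergic nuclei, a ratio of 4.05 (3.28 to 5.05), and 3.58 (2.59 to 5.06) in stroke. The window over the start gave 5.62 (3.61 to 9.17) and 6.75 (3.28 to 16.1). The intron 1 window at +3.2 kb gave the largest ratio of the 7 windows of the locus: 192 fragments in excitatory against 5 in GABAergic nuclei in sham, a ratio of 24.3 (10.3 to 75.8), and 82 against 0 in stroke. The exact interval put the stroke level at least 13.7-fold higher, and a floor of 3 fragments summed over the GABAergic class gave 17.2-fold. The intervals of the windows at +3.2 kb and -1.7 kb did not overlap in either library.

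A window 9.6 kb upstream behaved otherwise. It covers the first exons of Aldh16a1 and Pih1d1 and held 2004 fragments, and its excitatory over GABAergic ratio was 0.933 (0.808 to 1.08) in sham and 0.919 (0.744 to 1.14) in stroke. It was lower in excitatory nuclei than in astrocytes, by 0.518 (0.421 to 0.643) in sham. A window 6.4 kb upstream, which overlaps exon 4 of Pih1d1 in part, was higher in excitatory than in GABAergic nuclei, by 4.78-fold (2.78 to 8.81) and 6.49-fold (3.28 to 14.6), and held 0 thalamic and habenular fragments in sham. Both lie outside the counted window of Slc17a7.

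Slc17a6, the transporter gene of thalamic and other subcortical neurons, was highest in thalamic and habenular nuclei among classes of at least 50 nuclei. There it held 94 fragments in sham and 18 in stroke, levels of 64.9 CPM (52.4 to 79.4) and 34.4 CPM (20.4 to 54.4). In excitatory nuclei it stood at 12.9 CPM in sham and 12.1 in stroke, and in GABAergic nuclei at 6.47 and 7.37. The level of excitatory nuclei was 0.198 of that of thalamic and habenular nuclei in sham (0.158 to 0.251) and 0.352 in stroke (0.217 to 0.606). The reverse ratio was thus past 1.5-fold in both. Of all genes, 15.3% in sham and 14.9% in stroke were higher in thalamic and habenular than in excitatory nuclei by 1.5-fold or more. Genes were also ranked by fold in thalamic and habenular nuclei over all other nuclei, with the libraries summed. Only the 8957 genes with at least 50 fragments in that small class were ranked, so many genes low there were left out. Slc17a6 came first of these, at 4.84-fold (3.96 to 5.87) from 112 fragments, 94 of them from sham. Its chromosome 7 neighbour Ano5 came next. Since the limit acts on the ranked class itself, the rank is a description only.

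A fragment over Slc17a6 was found in 40.3% of thalamic and habenular nuclei in sham (31.9 to 49.1) and in 19.6% in stroke (10.2 to 32.4). The shares in GABAergic nuclei were 5.71% and 5.09%. Thinned to 5000 fragments, the sham share was 30.6% of 108 thalamic and habenular nuclei against 3.0% of GABAergic nuclei. Fewer than 50 stroke nuclei of that class were deep enough to thin. In sham the thalamic and habenular level was 3.50-fold over the next class, upper layer nuclei (2.74 to 4.44). In stroke it was 2.63-fold over upper layer nuclei (1.49 to 4.41), but the next in order were vascular nuclei at 17.6 CPM, and these did not differ from it beyond counting error (1.95-fold, 0.981 to 3.85).

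Excitatory nuclei carried Slc17a6 above GABAergic nuclei, by 1.99-fold in sham (1.63 to 2.44) and 1.64-fold in stroke (1.26 to 2.16). The stroke ratio was 1.16 with no minimum share of fragments in peaks (0.962 to 1.41) and 0.883 with nuclei gated on their own fragments alone (0.526 to 1.47). In sham, upper layer nuclei stood at 18.5 CPM and hippocampal nuclei at 17.9, deep layer nuclei at 7.32 and other excitatory nuclei at 5.98, so the 4 subclasses were not alike and the last did not stand above the GABAergic level. Upper over deep layer was 2.53-fold in sham (1.85 to 3.53), the opposite order to Slc17a7, which was lower in upper than in deep layer nuclei (0.771, 0.699 to 0.851). In stroke the upper and deep layer levels of Slc17a6 were 13.1 and 11.6 CPM and did not differ beyond counting error (1.13, 0.787 to 1.63). In the sham upper layer class 6 nuclei with 5 or more fragments held 20.6% of the fragments, 16 of them in 1 nucleus. The low GABAergic level of Slc17a6 was 2.42-fold and 2.01-fold over the closed level.

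Astrocytes carried Slc17a6 at 13.5 CPM in sham and 11 in stroke, levels that did not differ from those of excitatory nuclei beyond counting error (excitatory over astrocyte 0.956, 0.717 to 1.30, and 1.10, 0.823 to 1.48). The window just upstream of the start, at -0.2 kb (chr7:51621706-51622005, intergenic), which overlaps the printed promoter, held 15 of the 53 astrocyte fragments in sham and 16 of 62 in stroke. Its level was lower in excitatory nuclei than in astrocytes, by 0.411 in sham (0.227 to 0.788) and 0.438 in stroke (0.218 to 0.898). The same window was higher in excitatory than in GABAergic nuclei, by 3.96-fold (1.86 to 9.68) and 4.40-fold (1.31 to 23.0).

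The window that set thalamic and habenular nuclei apart lay deep in the gene. At +40.6 kb, in intron 8, these nuclei held 18 fragments in 17 nuclei in sham, 12.4 CPM, against 20 fragments and 0.626 CPM in excitatory nuclei, a ratio of 19.8 (9.89 to 39.5). In stroke the counts were 2 and 6, a ratio of 10.7 (1.06 to 60.0). The excitatory over GABAergic ratio of this window was 1.81 in sham (0.736 to 5.07), so it did not separate those classes beyond counting error. Around the start, the thalamic and habenular over excitatory ratio was 2.20 at -0.2 kb (0.686 to 5.49) and 4.72 at +0.4 kb (1.60 to 11.6) in sham. A window 21.9 kb upstream held 71 excitatory and 0 thalamic and habenular fragments in sham and 42 and 1 in stroke, ratios of 0 (0 to 1.18) and 0.767 (0.0190 to 4.51) that do not differ from 1 beyond counting error. It gave an excitatory over GABAergic ratio of 11.3 (4.21 to 42.4) in sham and 13.2 (3.43 to 113) in stroke.

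**Figure D2:**
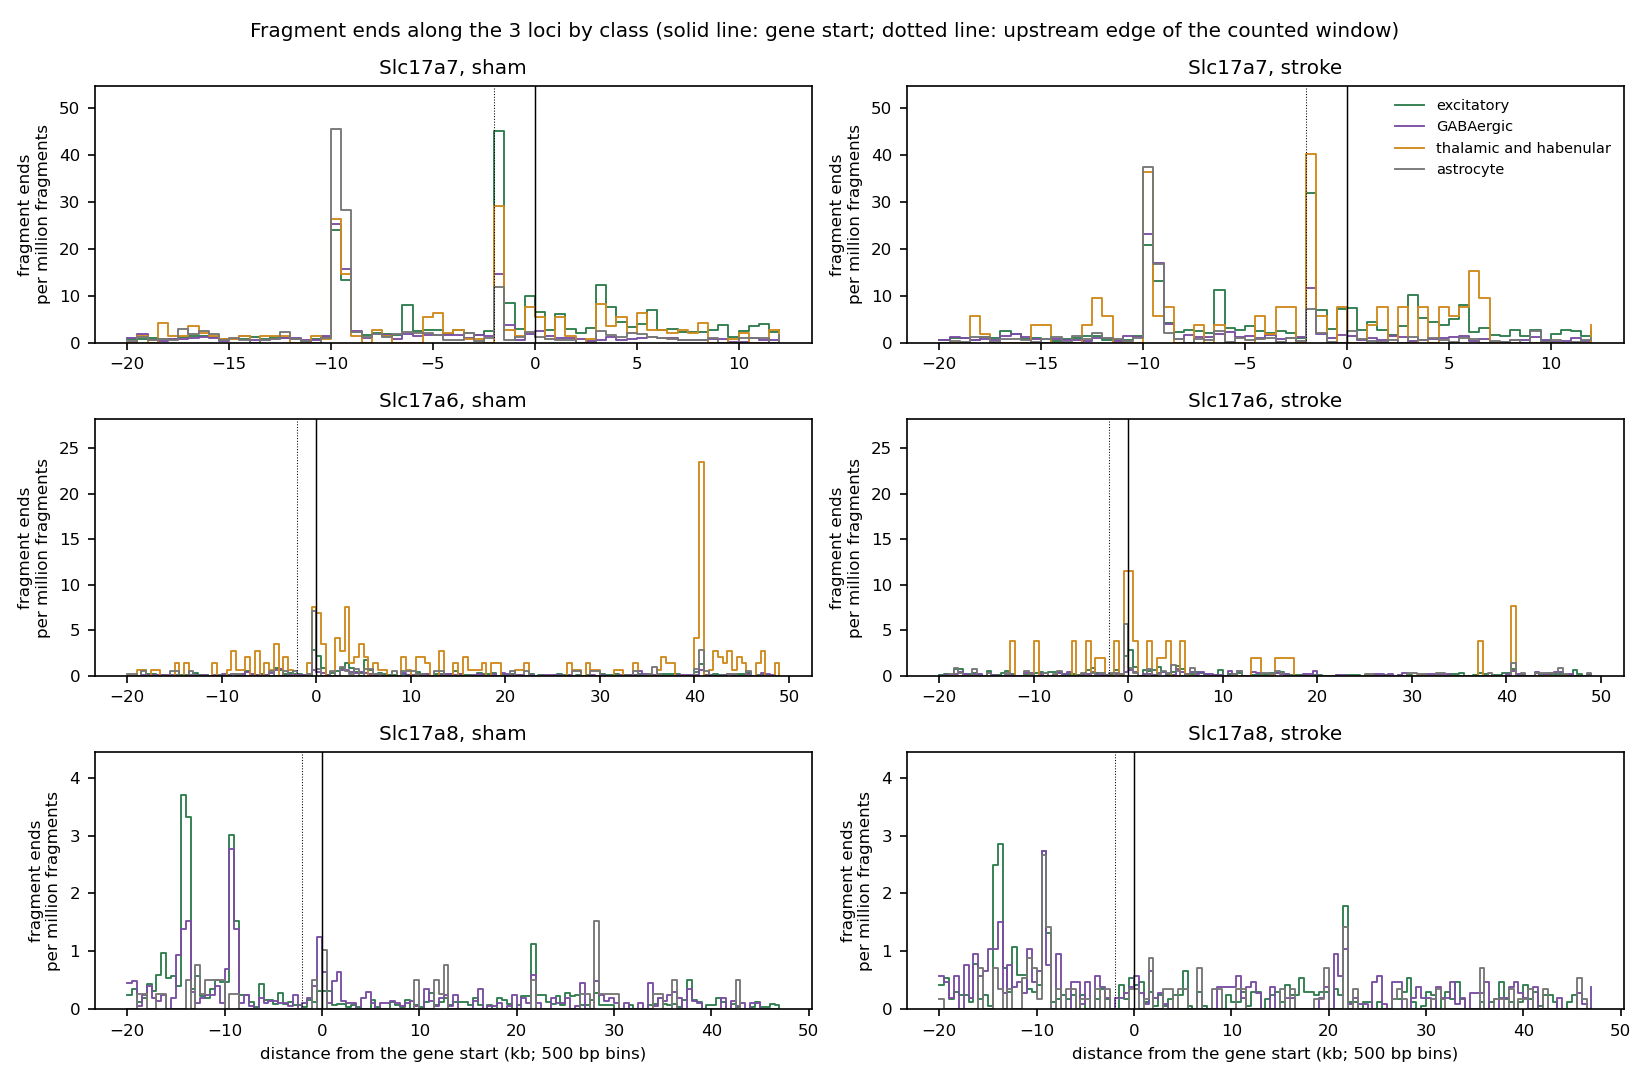
Fragment ends per 1000000 fragments of a class (y) along each locus in 500 bp bins by distance from the gene start (x, kb), sham left and stroke right, for 4 classes; the solid line is the gene start and the dotted line the upstream edge of the counted window. Thalamic and habenular nuclei are left out of the Slc17a8 panels because they held 8 and 12 fragments there. The tall bins are those near -9.6 kb of Slc17a7 in all 4 classes, near -1.7 kb of Slc17a7, highest in excitatory nuclei in sham and thalamic nuclei in stroke, near +40.6 kb of Slc17a6 in thalamic nuclei, and near -13.9 and -8.9 kb of Slc17a8.

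Slc17a8, the transporter gene of scattered neurons with a second transmitter, was the least accessible of the 3 per kb in excitatory nuclei, at 0.112 CPM per kb in sham and 0.193 in stroke against 0.252 and 0.237 for Slc17a6. In GABAergic nuclei Slc17a8 stood at 0.144 CPM per kb in sham (0.121 to 0.169) against 0.127 for Slc17a6 (0.106 to 0.150). In stroke the values were 0.202 (0.165 to 0.244) and 0.144 (0.114 to 0.180), and the intervals overlap in both libraries. Slc17a8 held 176 fragments in excitatory nuclei in sham and 160 in stroke, 5.51 CPM (4.73 to 6.39) and 9.50 CPM (8.08 to 11.1). GABAergic nuclei held 7.07 and 9.92 CPM. The excitatory over GABAergic ratio was 0.780 in sham (0.622 to 0.980) and 0.957 in stroke (0.744 to 1.24), so neither library passed 1.5-fold in either direction. Other settings moved it both ways. Some took it past 1.5-fold lower: in sham 0.366 with the promoter alone (0.180 to 0.717, from 15 and 26 fragments), 0.656 per 1000000 fragments in peaks and 0.631 with nuclei gated on their own fragments, and in stroke 0.60 with no minimum share in peaks and 0.554 with nuclei gated on their own fragments. Others brought it to about 1: in sham 1.04 with over 30% of fragments in peaks (0.790 to 1.38) and 0.959 with no minimum share (0.775 to 1.19), and in stroke 1.0 after thinning (0.680 to 1.49). Over the closed level it was 1.90-fold in sham and 2.58-fold in stroke excitatory nuclei, and 2.74-fold and 2.81-fold in GABAergic nuclei. Per kb it stood above 19.1% and 23.1% of genes in excitatory nuclei, where Slc17a6 stood above 28.9% and 26.1%.

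Among classes in sham, Slc17a8 was highest in Prox1 Adarb2 nuclei, which were gated on markers of interneurons from the caudal ganglionic eminence. The level was 19.1 CPM from 37 fragments, 1.90-fold over the next class of at least 50 nuclei (1.10 to 3.36), but 2 nuclei held 43.2% of these fragments and 1 nucleus alone held 11. The share of these nuclei with a fragment was 8.96%, and 3.11% after thinning, against 3.14% for all GABAergic nuclei. In stroke Prox1 Adarb2 nuclei held 10.9 CPM from 11 fragments. In stroke the highest level was in thalamic and habenular nuclei, 22.9 CPM from 12 fragments against 5.52 CPM from 8 in sham, and no neighbours in the stroke order differed beyond counting error. Lhx6 nuclei, which were gated on markers of interneurons from the medial ganglionic eminence, held 9.62 and 13.2 CPM. Deep layer nuclei held more than upper layer nuclei in both libraries, at 7.79 against 4.90 CPM in sham (upper over deep 0.629, 0.433 to 0.922) and 15.5 against 7.51 CPM in stroke (0.483, 0.328 to 0.707).

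The start of Slc17a8, whose promoter is printed above, held 9 fragments in excitatory and 14 in GABAergic nuclei in sham, a ratio of 0.408 (0.156 to 1.01), and 6 and 3 in stroke, a ratio of 1.26 (0.268 to 7.76). The window with the most fragments inside the gene, at +21.7 kb in intron 3, stood at 2.16 in sham (0.763 to 7.47) and 1.88 in stroke (0.651 to 6.63), so neither window differed between the classes beyond counting error. That intron 3 window (chr10:89599420-89599719) lies just downstream of the promoter of the further RefSeq start (chr10:89599766-89600065, minus strand). The first intron window at +1.7 kb held 1 excitatory and 7 GABAergic fragments in sham (0.0906, 0.00201 to 0.705) and 2 and 4 in stroke (0.314, 0.0284 to 2.19), where the interval holds 1. The most open places near the gene lay outside its counted window. A window 13.9 kb upstream (chr10:89635054-89635353, intergenic) held 238 fragments, and was higher in excitatory nuclei by 2.54-fold in sham (1.64 to 4.06) and 2.28-fold in stroke (1.15 to 4.94). In sham it held 104 excitatory fragments and 0 in astrocytes. A window 8.9 kb upstream held 216 fragments and did not differ between the 2 neuron classes beyond counting error, at 1.23 (0.802 to 1.92) and 1.26 (0.669 to 2.45). Which gene these windows belong to was not tested.

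**Figure D3:**
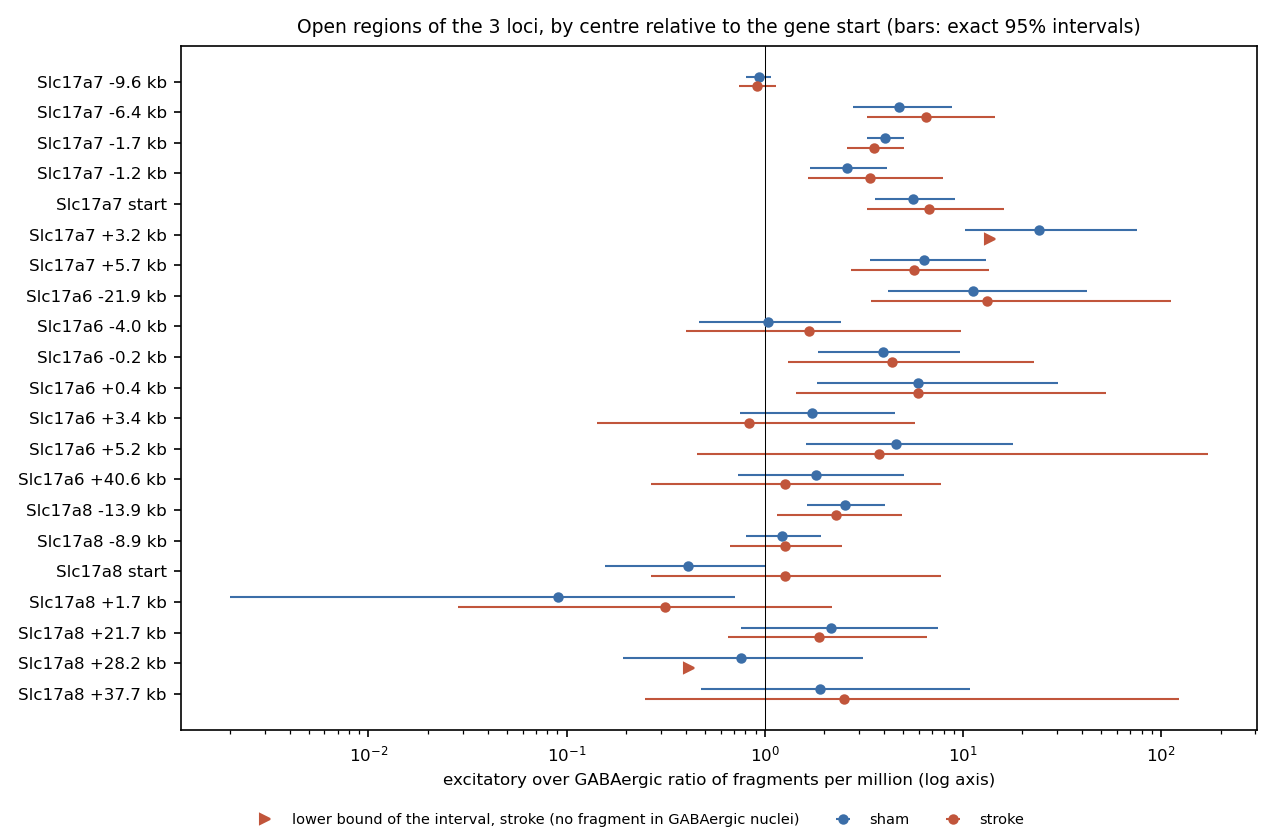
Ratio of fragments per 1000000 in excitatory over GABAergic nuclei (x, log axis) for the 21 most fragment-rich windows of the 3 loci, named by the distance of their centre from the gene start (y), with sham in blue and stroke in red; bars are exact 95% intervals and arrowheads mark a lower bound where GABAergic nuclei held no fragment in stroke. The window at +3.2 kb of Slc17a7 lies farthest to the right in sham, at 24.3, and the window at -9.6 kb lies at 0.933.

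The 3 genes were also compared nucleus by nucleus within the excitatory class. Sham excitatory nuclei with a Slc17a7 fragment carried Slc17a6 at 11.6 CPM against 14.9 CPM in nuclei without one, a ratio of 0.776 (0.636 to 0.948). In stroke the ratio was 0.985 (0.742 to 1.31). In the upper layer class the ratio was 0.654 in sham (0.511 to 0.835) and 1.40 in stroke (0.896 to 2.22), so the direction was not shared by the libraries. In the deep layer class it was 1.15 in sham (0.612 to 2.21) and 0.864 in stroke (0.473 to 1.57). For Slc17a8 in excitatory nuclei, the ratio between nuclei with and without a Slc17a7 fragment was 1.87 in sham (1.32 to 2.68) and 0.631 in stroke (0.454 to 0.873). Between nuclei with and without a Slc17a6 fragment, the Slc17a8 ratio was 2.21 in sham (1.53 to 3.13) and 0.617 in stroke (0.312 to 1.11). The 44 fragments behind the sham value lay in 19 of 295 nuclei, which were deeper (median 14352 against 11888 fragments for nuclei without Slc17a6). These intervals treat the fragments of 1 nucleus as independent, so they are too narrow where a few nuclei hold many. Nuclei with a Slc17a7 fragment were deeper, with medians of 14144 against 9834 fragments in sham and 13716 against 10957 in stroke. Of 2592 sham excitatory nuclei, 175 held fragments over both Slc17a7 and Slc17a6.

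The comparison of stroke with sham was made within each class, so that a change in the share of a class did not enter it. In excitatory nuclei Slc17a7 was lower in stroke, at 67.6 against 82.0 CPM, a ratio of 0.824 (0.768 to 0.884). Slc17a6 was at 12.1 against 12.9 CPM, a ratio of 0.941 (0.791 to 1.12). Slc17a8 was higher, at 9.50 against 5.51 CPM, a ratio of 1.72 (1.38 to 2.15). The median over 18310 genes was 0.967, and 3.70% of them were higher and 0.885% lower in stroke by 1.5-fold or more. Slc17a8 was thus past 1.5-fold and the other two were not, but with nuclei gated on their own fragments its ratio was 1.22 (0.673 to 2.13). In both directions, fewer nuclei of a kind within a class and less open chromatin per nucleus cannot be told apart.

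The closed level moved between the libraries too. In excitatory nuclei the receptor genes were 1.27-fold higher in stroke (1.25 to 1.29), and the median share of fragments in peaks was 34.7% in stroke against 41.0% in sham. Taken over the closed level, Slc17a7 in stroke was 0.650 of its sham value, Slc17a6 0.742 and Slc17a8 1.36. Per 1000000 fragments in peaks, Slc17a7 was 0.978 (0.911 to 1.05), Slc17a6 1.12 (0.939 to 1.32) and Slc17a8 2.05 (1.64 to 2.55). The Slc17a8 ratio was 1.42 both without the 20% limit on fragments in peaks and with a 30% limit, where the receptor genes stood at 1.26 and 1.19, and it then fell short of 1.5-fold. The part that this shift has in the 3 ratios was not tested.

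Among the excitatory subclasses, Slc17a7 was lowest against sham in deep layer nuclei (0.694, 0.603 to 0.798), followed by upper layer (0.795, 0.709 to 0.892) and other excitatory nuclei (0.917, 0.805 to 1.04). In hippocampal nuclei the ratio was 1.05 (0.776 to 1.40), and in GABAergic nuclei 0.844 (0.705 to 1.01). Along the locus, the window at -1.7 kb was at 0.736 in excitatory nuclei (0.634 to 0.853), the start at 0.836 (0.641 to 1.08) and the intron 1 window at 0.810 (0.617 to 1.05). The window in Pih1d1 at -6.4 kb went the other way, at 1.56 (1.17 to 2.07), and the window at +5.7 kb stood at 1.24 (0.909 to 1.69). Outside neurons, Slc17a7 was lower in stroke past 1.5-fold in astrocytes (0.635, 0.452 to 0.892) and in OPC nuclei (0.618, 0.346 to 1.09), where 4.83% and 11.8% of genes were lower by as much. The interval of the OPC ratio holds 1. In sham, 2 OPC nuclei held 33.3% of the 30 fragments. The share of OPC nuclei with a fragment was 13.2% in sham and 13.4% in stroke, and 14.3% and 8.25% after thinning. In astrocytes 1 sham nucleus held 14.5% of the sham fragments, and 2 stroke nuclei held 14.5% of the stroke ones. The astrocyte shares were 10.8% and 8.40%, and 8.37% and 4.67% after thinning. The intervals of sham and stroke overlap for each share.

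Slc17a8 was past 1.5-fold higher in stroke in several classes. The ratios were 1.53 in upper layer nuclei (1.05 to 2.23), 1.99 in deep layer nuclei (1.36 to 2.94) and 2.03 in other excitatory nuclei (1.22 to 3.38). The shares of genes that far higher in those classes were 3.72%, 4.22% and 3.61%. In other excitatory nuclei the 37 stroke fragments lay in 20 nuclei, 10 of them in 1. There the share of nuclei with a fragment was 4.52% in sham and 5.49% in stroke, and 1.59% and 4.00% after thinning. In deep layer nuclei the shares were 5.12% (3.53 to 7.15) and 11.1% (8.25 to 14.5). After thinning they were 3.40% (1.99 to 5.39) and 5.80% (3.63 to 8.73). The thinned intervals of sham and stroke overlap in both classes. In deep layer nuclei 2 sham nuclei held 22.0% of the sham fragments, and 1 stroke nucleus held 14.9% of the stroke ones. Spiny projection nuclei, the output neurons of the striatum, gave 1.80 (1.14 to 2.81; 4.51% of genes), and astrocytes gave 1.56 (0.862 to 2.96; 6.20% of genes), from 17 and 38 fragments and with an interval that holds 1. Neuron classes with under 50 fragments stood on both sides of 1: Prox1 Adarb2 nuclei at 0.571 (0.263 to 1.14) and hippocampal nuclei at 0.704 (0.234 to 1.78), and other GABAergic nuclei at 1.28 (0.329 to 4.44), Zic nuclei at 2.41 (1.0 to 6.18) and thalamic and habenular nuclei at 4.15 (1.56 to 11.7). Along the locus, the stroke over sham ratios of the upstream windows in excitatory nuclei were 0.729 at -13.9 kb (0.493 to 1.06) and 0.919 at -8.9 kb (0.583 to 1.42). Inside the counted window the ratio was 1.67 at +21.7 kb (0.778 to 3.56), 1.26 at the start (0.370 to 3.98) and 0.842 at +37.7 kb (0.190 to 3.02). None of the 7 windows differed from 1 beyond counting error in excitatory nuclei. Over all kept nuclei, where the shares of the classes enter, 2 windows did. These were +21.7 kb at 2.39 (1.47 to 3.95) and -13.9 kb at 0.678 (0.511 to 0.895). The Slc17a8 ratio over all kept nuclei was 1.43 (1.26 to 1.61), beside 1.47 for the receptor genes. In ungated nuclei the Slc17a8 ratio was 0.970 (0.765 to 1.23). In GABAergic nuclei as a whole the ratio was 1.40 (1.08 to 1.82), short of 1.5-fold and beside 1.37 for the receptor genes. In the classes past 1.5-fold the receptor genes were also higher in stroke, from 1.23-fold in deep layer to 1.37-fold in spiny projection nuclei. Taken over the closed level, the ratios were 1.2 in upper layer, 1.62 in deep layer, 1.57 in other excitatory and 1.31 in spiny projection nuclei.

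Slc17a6 did not move one way. It was higher in stroke past 1.5-fold in deep layer nuclei (1.58, 1.04 to 2.41), other excitatory nuclei (1.83, 1.23 to 2.74) and spiny projection nuclei (1.54, 0.919 to 2.54), where 4.22%, 3.61% and 4.51% of genes were that far higher. Taken over the closed level the 3 ratios were 1.28, 1.42 and 1.12, all short of 1.5-fold. In upper layer nuclei it was lower, at 0.705 (0.547 to 0.901), where 6 sham nuclei held 20.6% of the fragments. In thalamic and habenular nuclei it was at 0.530 (0.301 to 0.884), past 1.5-fold lower as were 22.1% of 8957 genes in that small class. Of the 56 stroke nuclei of the class, 40 lay near the limit of the gate, meaning that they failed a stricter score, against 45 of 134 in sham, and the receptor genes were 1.71-fold higher in stroke. Their part in the Slc17a6 ratio was not tested. In vascular nuclei 21 fragments in stroke stood against 1 in sham, a ratio of 11.8 with an interval of 1.90 to 488, and 8 of the 21 came from 1 nucleus.

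**Figure D4:**
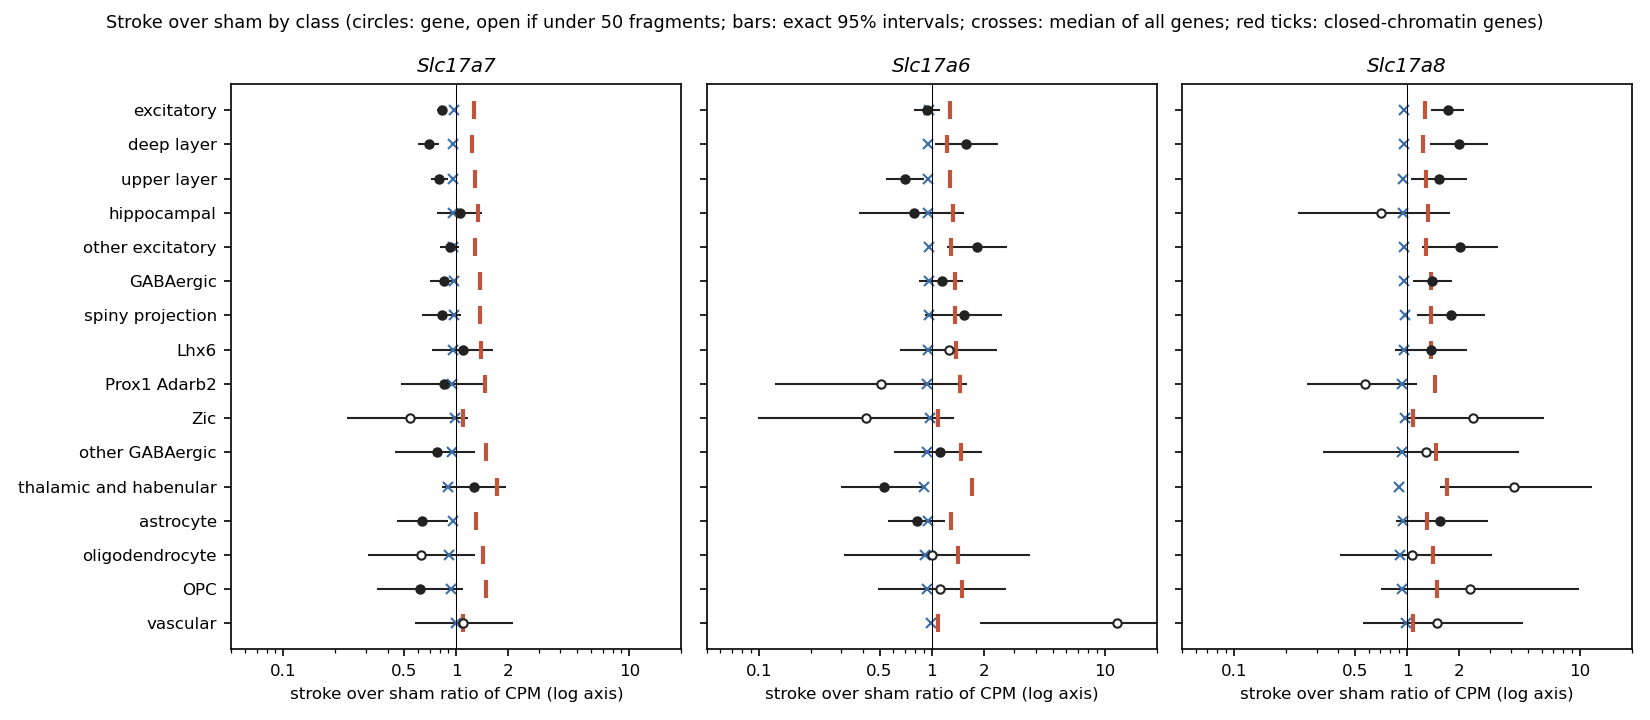
Ratio of fragments per 1000000 in stroke over sham (x, log axis) for each gene by class (y); circles are the gene, open where it held under 50 fragments in the 2 libraries, bars exact 95% intervals, blue crosses the median of all genes in that class and red ticks the receptor genes in closed chromatin. The bar of Slc17a6 in vascular nuclei runs past the axis. Slc17a7 lies at 0.824 in excitatory nuclei, left of the crosses, and Slc17a8 at 1.72, right of the red tick at 1.27.

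The wider transporter and release machinery was read from 4 lists of 33 genes. Of the other SLC17 family members, 1 of 6 was higher in excitatory than in GABAergic nuclei by 1.5-fold or more in sham and none lower, beside 7.49% of all genes higher in sham and 7.45% in stroke. This was Slc17a3, an organic anion transporter best known from kidney, at 2.02 in sham (1.61 to 2.57) and 3.44 in stroke (2.24 to 5.51). Slc17a4 was lower in stroke, at 0.656 (0.427 to 1.01). Over all genes, 9.22% in sham and 7.89% in stroke were lower in excitatory nuclei by that much. Of the other vesicular transporters, Slc32a1, which loads GABA, stood at 0.112 (0.0932 to 0.134) and 0.119 (0.0928 to 0.150), from 4.57 against 40.9 CPM in sham and 4.93 against 41.5 CPM in stroke. Slc18a3, which loads acetylcholine, stood at 0.650 in sham and 0.785 in stroke.

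None of the 7 genes of glutamate supply passed 1.5-fold between excitatory and GABAergic nuclei. Of 16 vesicle and release genes, 2 were higher and 1 was lower in excitatory nuclei, the same 3 in both libraries, beside 7.49% and 9.22% of all genes in sham and 7.45% and 7.89% in stroke. Sv2b, a synaptic vesicle glycoprotein, stood at 2.64 and 2.38, and Stx1a, a SNARE protein of the presynaptic membrane, at 2.20 and 1.80. Sv2c, a relative of Sv2b, stood at 0.477 and 0.577. The medians of the 4 lists in sham were 1.35, 0.840, 0.864 and 1.08, beside 0.941 over all genes, and in stroke 1.26, 0.923, 0.828 and 1.06, beside 0.930. In excitatory nuclei none of the 33 genes was past 1.5-fold between stroke and sham. Over all 18310 genes only 3.70% were that far higher and 0.885% that far lower, so a list of this size would hold few. The list medians were 0.967, 1.01, 0.919 and 0.901, beside 0.967 over all genes.

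Genes whose levels ran most like each transporter were found from 28 points, 14 classes in each of the 2 libraries, over 17714 genes on the log2(CPM + 1) scale. The points share the libraries and their depths, and the correlations are a description. For Slc17a7 the 5 most alike were Ccdc155 (r = 0.86), Gm11549 (0.86), Sv2b (0.86), Treml1 (0.85) and Rtn4r (0.85). Ccdc155 lies just downstream of Slc17a7 on chromosome 7 (chr7:45183624-45204892), and Slc32a1 ran the opposite way, at -0.68. For Slc17a6 they were Apol10b (0.65), Plcxd2 (0.65), Sult6b2 (0.64), Tmem154 (0.63) and Inpp4b (0.62), and for Slc17a8 Cpb2 (0.63), Btc (0.63), Prr13 (0.61), Arg1 (0.61) and Trmt11 (0.61). These are the highest values of 17714 genes, and how high unrelated genes would reach was not tested. Some points rest on few fragments, such as 1 in sham vascular nuclei for Slc17a6 and 4 in sham OPC nuclei for Slc17a8. Between the members, Slc17a7 and Slc17a6 gave 0.39, and Slc17a8 gave -0.08 with each of the others.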

How the data were processed

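Nuclei of sham and MCAO/R brains were profiled by droplet scATAC-seq. Per the submitters' processing notes, the authors used Cell Ranger ATAC 2.1.0 and the mm10 build. That program removes duplicates, moves fragment ends to the transposase cut sites and calls cells and peaks. The authors deposited a list of fragments and a table of counts per barcode. The deposited values are raw counts with no normalization.

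Fragments of kept barcodes were counted over gene body plus 2 kb upstream (GENCODE M21, mm10) and divided by all fragments of the class. Classes came from marker lists scored over each nucleus and its 30 nearest neighbours in a reduced space of 100000 tiles of 5 kb (components 2 to 30, tiles within 100 kb of the 3 genes left out), with a score of at least 4 and a margin of at least 2. The 3 genes and the lists were chosen with earlier results of these data known. The scoring rule and its limits were chosen after seeing the data, on held-out markers and not on the 3 genes. A nucleus near the limit failed a score of 6 or a margin of 3.

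Ratios carry exact conditional binomial intervals and levels exact Poisson intervals. A gene needed 50 fragments to be called past 1.5-fold. Genes were named by a rule: the 3 transporters, list members past 1.5-fold, and the 5 genes most alike. Ano5, and Neurod6 and the receptor genes that led the excitatory rank, were named after their values were seen. Python 3.11.15, numpy 2.4.6 and scipy 1.17.1 were used, and the ratio step was tested on simulated data. Other limits on fragments in peaks, counting windows, scalings, depths and gates were tried. Intervals and floors cover counting error only.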

Additional observations from a re-analysis of the deposited data

Results flagged for a closer look

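Slc17a6 moved in opposite directions in different neuron classes between the libraries. The ratio of stroke over sham was 1.58 in deep layer nuclei and 1.83 in other excitatory nuclei, above 1, and 0.705 in upper layer nuclei and 0.530 in thalamic and habenular nuclei, below 1, each with an interval that leaves out 1. The difference between these classes was not tested, since each condition had 1 library. The receptor genes were higher in stroke in all of them, at 1.23, 1.29, 1.28 and 1.71 in the same order. Taken over the closed level, the Slc17a6 ratios were 1.28, 1.42, 0.553 and 0.310. In the thalamic and habenular class the stroke value rests on 18 fragments in 11 nuclei. In upper layer nuclei 6 sham nuclei held 20.6% of the fragments, and in other excitatory nuclei 1 stroke nucleus held 8 of the 55 fragments. Thinned to 5000 fragments, the share of upper layer nuclei with a fragment was 6.11% in sham (4.73 to 7.73) and 5.54% in stroke (3.69 to 7.96). In other excitatory nuclei it was 3.71% (2.31 to 5.62) and 4.57% (2.64 to 7.32), and in deep layer nuclei 2.60% (1.39 to 4.41) and 5.52% (3.41 to 8.40). The intervals of sham and stroke overlap in each.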

How the results depend on the processing

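The class ratio (excitatory over GABAergic, in each library) and the stroke over sham ratio in excitatory nuclei of the 3 genes were recomputed under 11 alternatives, 8 planned and 3 chosen after seeing the data. Of 99 values 69 stayed within the interval of the reported value, 29 moved outside it and 1 reversed, meaning that a ratio reported past 1.5-fold crossed 1. Of the moved values, those that crossed 1 belong to ratios reported short of 1.5-fold (Slc17a8 sham class, Slc17a6 stroke over sham). The cause was not tested. In the following, each class ratio is named by its library. With no minimum share in peaks, the stroke class ratios were 6.54 (Slc17a7), 1.16 (Slc17a6) and 0.60 (Slc17a8). With over 30% in peaks, the sham class ratio of Slc17a8 was 1.04 and the stroke over sham ratios were 0.886 (Slc17a7) and 0.753 (Slc17a6). With the promoter alone, the sham and stroke class ratios were 3.07 and 3.18 (Slc17a7) and 3.53 and 4.85 (Slc17a6), that of Slc17a8 in sham was 0.366, and stroke over sham was 0.767 (Slc17a7) and 1.15 (Slc17a6). Per 1000000 fragments in peaks, the sham class ratio of Slc17a7 was 3.40, and stroke over sham was 0.978 (Slc17a7) and 1.12 (Slc17a6). With nuclei thinned to 5000 fragments, stroke over sham of Slc17a8 was 2.17. The other values come from the added alternatives. With nuclei gated on their own fragments, the class ratios were 3.10 and 3.34 (Slc17a7), the stroke class ratio of Slc17a6 reversed to 0.883 (0.526 to 1.47) and that of Slc17a8 was 0.554, and stroke over sham was 0.913 (Slc17a7), 0.746 (Slc17a6) and 1.22 (Slc17a8). With the gene body alone, Slc17a7 gave class ratios of 5.09 and 4.90 and stroke over sham of 0.887. With each nucleus counted once, it gave 3.31, 3.07 and 0.892. No paired analysis was possible because sham and stroke were sequenced as a single library apiece. Depth limits Slc17a8 and the small classes, whose few fragments give wide intervals.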

Other observations

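Nuclei without a class carried the transporters as well. The 1228 ungated sham nuclei and 998 ungated stroke nuclei held Slc17a7 at 55.1 and 50.2 CPM, between the excitatory and GABAergic levels. They held Slc17a6 at 20.7 CPM in sham (18.2 to 23.4) and 12 CPM in stroke (9.96 to 14.3), a stroke over sham ratio of 0.579 (0.463 to 0.720), and Slc17a8 at 13.1 and 12.7 CPM. The most fragments over 1 gene in 1 nucleus were 16 for Slc17a7 in a deep layer nucleus, 16 for Slc17a6 in an upper layer nucleus and 13 for Slc17a8 in an upper layer nucleus, all in sham. In the ungated sham nuclei, 7 nuclei with 5 or more Slc17a8 fragments held 31.2% of its 160 fragments.

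Myeloid nuclei, 295 in stroke and 39 in sham, held Slc17a8 at 11.9 CPM in stroke (55 fragments in 42 nuclei). With the libraries summed, the myeloid class was 1.46-fold over all other nuclei for Slc17a8 (1.11 to 1.89), a class held mostly by the stroke library. The receptor genes of closed chromatin stood at 0.127 CPM per kb in stroke myeloid nuclei, against 0.0853 over all kept stroke nuclei and 0.0717 in GABAergic ones. Within stroke the myeloid level of Slc17a8 was 1.19-fold over GABAergic nuclei (0.846 to 1.67). The myeloid level in sham, 17 CPM, rests on 7 fragments in 2 nuclei.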
